A study of Mus musculus with 8 samples.

Results

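Hcn2, Hcn3 and Hcn4 encode subunits of the hyperpolarization-activated, cyclic nucleotide-gated (HCN) channels, and these 3 genes were taken by symbol from a table of 26824 mouse genes. All 3 were present and passed the filter on low counts. Other genes of the family are not analysed here. RNA sequencing had been run on whole retina from mice aged 1 month. The study set 3 libraries labelled WT (WT 1 to WT 3) against 5 labelled Kv8.2 KO (KO 2 to KO 6), and each library pools 2 retinas from individual mice. Kv8.2 is the product of Kcnv2. Strain, sex, the design of the mutated allele and any batch are not given in the labels, and the untreated mice were kept on a 12-hour light/dark cycle. The series text says that the authors left out 2 KO samples and does not name them, so all 8 libraries were used.

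HCN channels open when the membrane hyperpolarizes and pass an inward cation current called Ih, and cyclic AMP bound to their C-terminal domain makes HCN2 and HCN4 open more readily. In photoreceptors light hyperpolarizes the cell, and Ih pulls the voltage back toward its resting level. It works there beside the outward potassium current of channels that contain Kv8.2, so both currents shape the photovoltage. HCN2 is known from rod bipolar cells, HCN3 from cone terminals and HCN4 from some types of cone bipolar cell. Whole-retina RNA does not separate these cells, and fewer cells of a type and less RNA per cell cannot be told apart.

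The pore is a conserved part of these subunits, and its coding sequence is shown here because likeness between the genes bears on whether their reads can be kept apart. Each stretch is 75 bases of exon 4 of 8, with the codons of the glycine-tyrosine-glycine selectivity filter in capitals. All were read on the coding strand from the GENCODE M21 transcripts (GRCm38, the build named in the submitters' processing notes). They lie at chr10:79728923-79728997 on the plus strand for Hcn2, chr3:89150976-89151050 on the minus strand for Hcn3 and chr9:58855555-58855629 on the plus strand for Hcn4.
Hcn2: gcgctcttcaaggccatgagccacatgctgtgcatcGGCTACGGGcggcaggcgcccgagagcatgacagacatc
Hcn3: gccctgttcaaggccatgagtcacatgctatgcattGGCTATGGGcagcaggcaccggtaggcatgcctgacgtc
Hcn4: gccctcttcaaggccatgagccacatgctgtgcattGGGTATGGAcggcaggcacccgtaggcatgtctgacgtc
Hcn3 and Hcn4 were identical at 67 of the 75 bases (89.3%), Hcn2 and Hcn4 at 63 (84.0%) and Hcn2 and Hcn3 at 60 (80.0%). Within this window the longest run shared by a pair was 32 bases, in Hcn2 and Hcn4.

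Whole transcripts were compared as well. Hcn2 (ENSMUSG00000020331, chr10:79716634-79736108, plus strand) has 5 of its 3165 words of 31 bases in another gene, a share of 0.158%. Hcn4 (ENSMUSG00000032338, chr9:58823412-58863175, plus strand) has 4 of 6088, a share of 0.0657%. Hcn3 (ENSMUSG00000028051, chr3:89146074-89160196, minus strand) has 686 of 3972, a share of 17.3%. Nearly all of these lie where 711 bases at the end of Hcn3, chr3:89146074-89146784, overlap Pklr, the pyruvate kinase gene of liver and red cells, on the other strand. Pklr is not analysed here, and whether reads were counted by strand is not given in the sources used here, so the Hcn3 counts are uncertain to that extent. The proteins encoded are 863 residues long for HCN2, 779 for HCN3 and 1201 for HCN4.

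The libraries held 17759146 to 25188870 counts, and the HCN genes had 361 to 732 counts in each of them. Counting error alone is then 5.26% of the lowest of these counts and 3.70% of the highest, taken as Poisson error. Levels are given as CPM, counts scaled to a common library total, after TMM scaling, which corrects library size by a trimmed mean of log ratios. Kcnv2, the gene named as knocked out, was at 519, 551 and 526.3 CPM in WT 1 to WT 3 and at 585, 447, 398, 409 and 409 CPM in KO 2 to KO 6. Its log2 fold change was -0.24 (SE 0.14, adjusted p = 0.275 in edgeR), with 4 of 5 libraries labelled KO below every WT library. It was called without KO 2 (-0.35, edgeR adjusted p = 0.0298) and by limma voom (-0.36, adjusted p = 0.00116). Since the transcript was present in every library labelled KO, and in KO 2 above every WT library, every direction below is by label. KO 4 to KO 6 stood apart on the first principal component, with scores of 45.7 to 58.1 against -40.2 to -11.9 in the other 5 libraries. Mitochondrial genes took 3.03% to 3.70% of their counts, against 7.09% to 7.92% in WT, with KO 2 (6.52%) and KO 3 (5.23%) between. For this reason the HCN results, and the calls named beside them, are also given with the libraries labelled KO taken as these sets, KO 2 with KO 3 and KO 4 with KO 5 and KO 6. KO 2 and KO 3 are not alike: their counts differed by a chi-square of 110 per degree of freedom, against 5.85 to 6.92 within KO 4 to KO 6, and lens genes took 3.96% of the counts of KO 3. The same WT libraries serve in both, and no WT library stands with KO 4 to KO 6, so there the group and the library set cannot be told apart.

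Hcn2 was at 20.8, 17.8 and 20.4 CPM in WT and at 25.2, 18.5, 32.8, 30.5 and 33.3 CPM in KO 2 to KO 6. KO 4 to KO 6 were the highest libraries, KO 2 lay between them and WT, and KO 3 lay within the WT range, so the groups overlapped. Mean Hcn2 (± SD) was 19.7 ± 1.62 CPM over WT (n = 3) and 28.1 ± 6.23 CPM over those labelled KO (n = 5). The log2 fold change was 0.51 (SE 0.18, 95% interval 0.11 to 0.92), and the adjusted p was 0.103 by edgeR's quasi-likelihood test, adjusted over all genes by Benjamini-Hochberg, with 4 of 5 libraries labelled KO above every WT library. Hcn2 therefore did not pass the threshold of 0.05 over all libraries. Without KO 3 the log2 fold change was 0.64 with an edgeR adjusted p of 0.00714, and 20% of all tested genes were called in that fit.

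Hcn3 was at 19.8, 18.2 and 17.5 CPM in WT and at 16.8, 17.97, 28.5, 30.6 and 29.1 CPM in KO 2 to KO 6. The libraries labelled KO fell into separate sets: KO 2 lay below every WT library, KO 3 lay inside the WT range, and KO 4 to KO 6 lay above all of them. Mean Hcn3 (± SD) was 18.5 ± 1.18 CPM over WT (n = 3) and 24.6 ± 6.62 CPM over those labelled KO (n = 5). The log2 fold change was 0.41 (SE 0.21, 95% interval -0.05 to 0.87), with an edgeR adjusted p of 0.228.

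Hcn4 was at 23.8, 21.9 and 25.7 CPM in WT and at 31.6, 24.2, 25.7, 22.8 and 28.5 CPM in KO 2 to KO 6. Its highest library was KO 2, not one of KO 4 to KO 6, and KO 3 and KO 5 lay within the WT range. Mean Hcn4 (± SD) was 23.8 ± 1.88 CPM over WT (n = 3) and 26.6 ± 3.55 CPM over those labelled KO (n = 5). The log2 fold change was 0.16 (SE 0.12, 95% interval -0.12 to 0.43), with an edgeR adjusted p of 0.438.

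**Figure D1:**
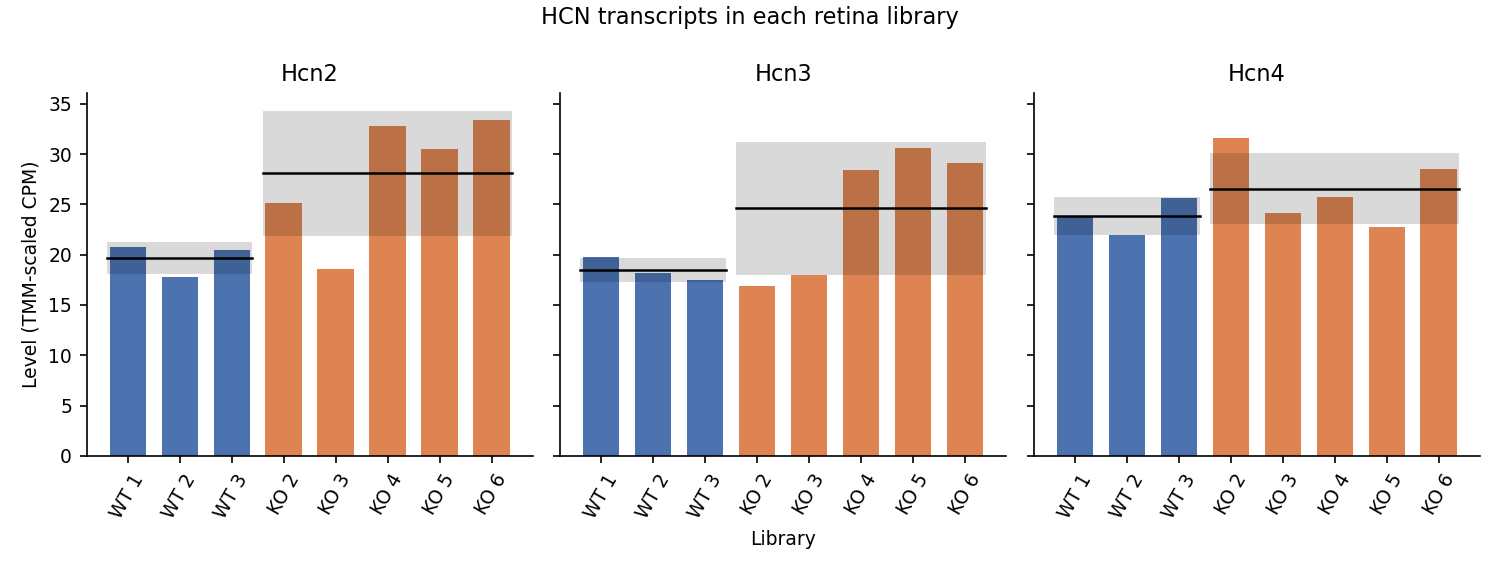
Level of Hcn2, Hcn3 and Hcn4 in each library, in TMM-scaled CPM (bars, blue for WT and orange for libraries labelled KO), with the group mean (line) and 1 SD either side (grey band). Hcn2 and Hcn3 are highest in KO 4, KO 5 and KO 6, at 28.5 to 33.3 CPM, while the highest Hcn4 level, 31.6 CPM, is in KO 2.

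Over all 8 libraries edgeR thus called 0 of the 3 HCN genes, where it called 7.58% of all 20167 tested genes. At an unadjusted p under 0.05 it gave 1, Hcn2 (unadjusted p = 0.0175 in edgeR). None of the 3 had every library labelled KO above every WT library, which 10.8% of the tested genes did. Other tools gave more calls, among the HCN genes as among all genes. DESeq2's Wald test called Hcn2 (adjusted p = 0.0368) and called 15.5% of all genes. limma voom with library weights called Hcn2 and Hcn3 (adjusted p = 0.000845 and 0.00236 in limma) and called 40.9% of all genes.

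With KO 2 and KO 3 alone against WT, the log2 fold change was 0.15 for Hcn2 (95% interval -0.19 to 0.50), -0.09 for Hcn3 (-0.35 to 0.18) and 0.23 for Hcn4 (-0.09 to 0.55). edgeR called 0 of the 3 there, 0 of the 3 had an unadjusted p under 0.05, and the other tools were not run on these libraries. It called 0.891% of all genes in that comparison, which rests on a pair of unlike libraries. With KO 4 to KO 6 alone against WT, Hcn2 and Hcn3 rose and Hcn4 did not pass. Hcn2 averaged 32.2 ± 1.503 CPM there (SD, n = 3), a log2 fold change of 0.72 (SE 0.08, edgeR adjusted p = 2.41e-05), with 3 of 3 libraries above WT. Hcn3 averaged 29.4 ± 1.103 CPM (SD, n = 3), a log2 fold change of 0.68 (SE 0.08, edgeR adjusted p = 2.76e-05), again with 3 of 3. Hcn4 had a log2 fold change of 0.12 (SE 0.09, 95% interval -0.09 to 0.33, edgeR adjusted p = 0.335). These 2 calls among 3 genes stand in a comparison that called 42.8% of all genes, 22.3% of all genes as higher in the libraries labelled KO.

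In fits of 3 libraries labelled KO against 3 WT, the group sizes the authors used, Hcn2 was called in 4 of the 10 possible choices, Hcn3 in 1 and Hcn4 in 0. The Hcn2 log2 fold change ran from 0.33 to 0.72 over these choices, that of Hcn3 from 0.19 to 0.68 and that of Hcn4 from 0.03 to 0.27. The choice that called Hcn3 was KO 4 to KO 6, and the 4 that called Hcn2 all left out KO 3. Those 4 called 11.3% to 42.8% of all genes, and the other 6 called 0.601% to 3.28%, so the HCN calls came where many genes were called.

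**Figure D2:**
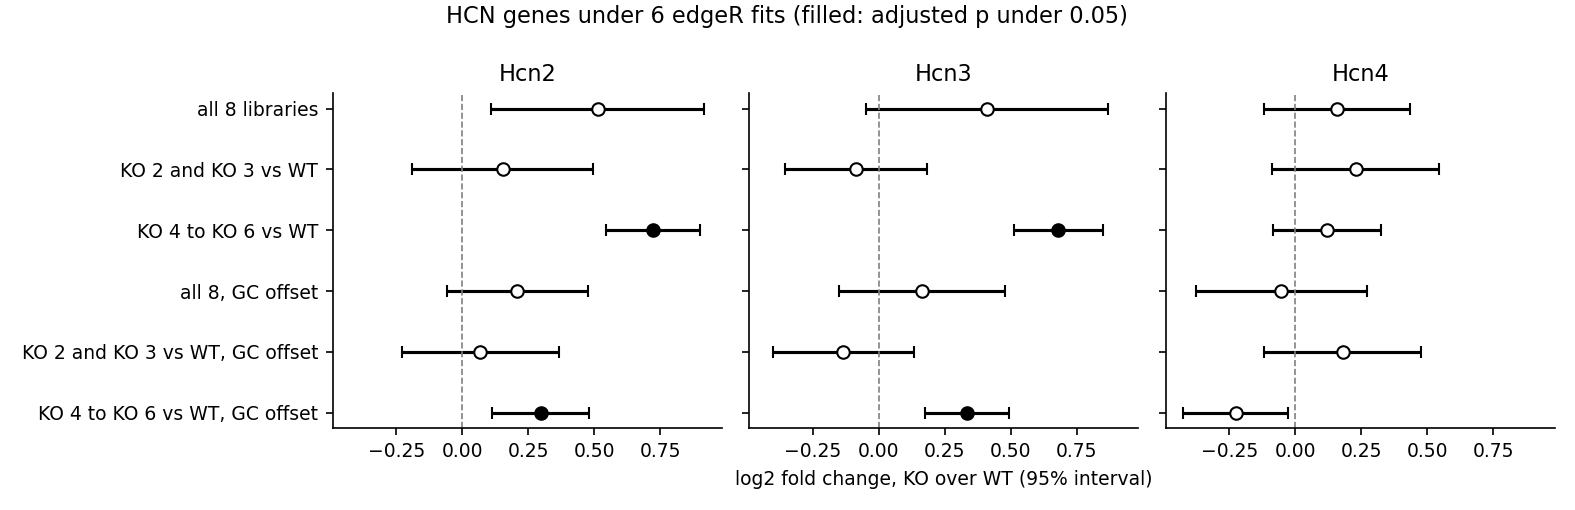
log2 fold change of each HCN gene in libraries labelled KO over WT under 6 edgeR fits (points), with 95% intervals (bars); filled points have an adjusted p under 0.05. The filled points are Hcn2 and Hcn3 in KO 4 to KO 6 against WT, at 0.72 and 0.68, and with an offset for GC content, at 0.30 and 0.33.

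The 3 transcripts are rich in G and C. GC content was 65.4% for Hcn2, higher than in nearly all tested genes (99.6% of them at or below it), 58.0% for Hcn3 and 58.0% for Hcn4, against a median of 49.5% over tested genes. Over all genes, fold changes followed GC content. Spearman's rho was 0.539 with KO 4 to KO 6 and 0.162 with KO 2 and KO 3, both over genes and so without independent points. In KO 4 to KO 6, genes within 1 percentage point of the GC content of Hcn2 (60 genes) had a median log2 fold change of 0.29, and those near Hcn3 (1192 genes) had a median of 0.35. Both genes lay above the median of genes like them in GC content. Hcn4, at nearly the GC content of Hcn3, lay below it (0.12, beside a median of 0.35 over 1199 genes).

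With an offset that removes each library's trend on GC content, Hcn2 had a log2 fold change of 0.21 (SE 0.12), Hcn3 of 0.16 (SE 0.14) and Hcn4 of -0.05 (SE 0.15) over all libraries. edgeR called 0 of the 3 in that fit, with 0 at an unadjusted p under 0.05, and 7.46% of the genes tested. In KO 4 to KO 6 against WT with the same offset, Hcn2 rose by 0.30 (SE 0.08, edgeR adjusted p = 0.0180) and Hcn3 by 0.33 (SE 0.07, edgeR adjusted p = 0.00475), where 31.8% of all genes were called. Hcn4 was at -0.23 (SE 0.09, edgeR adjusted p = 0.0778) there, so its direction turned with the offset. Both calls held, with smaller fold changes than before the offset. Few genes have the GC content of Hcn2, so the offset is least certain for that gene.

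**Figure D3:**
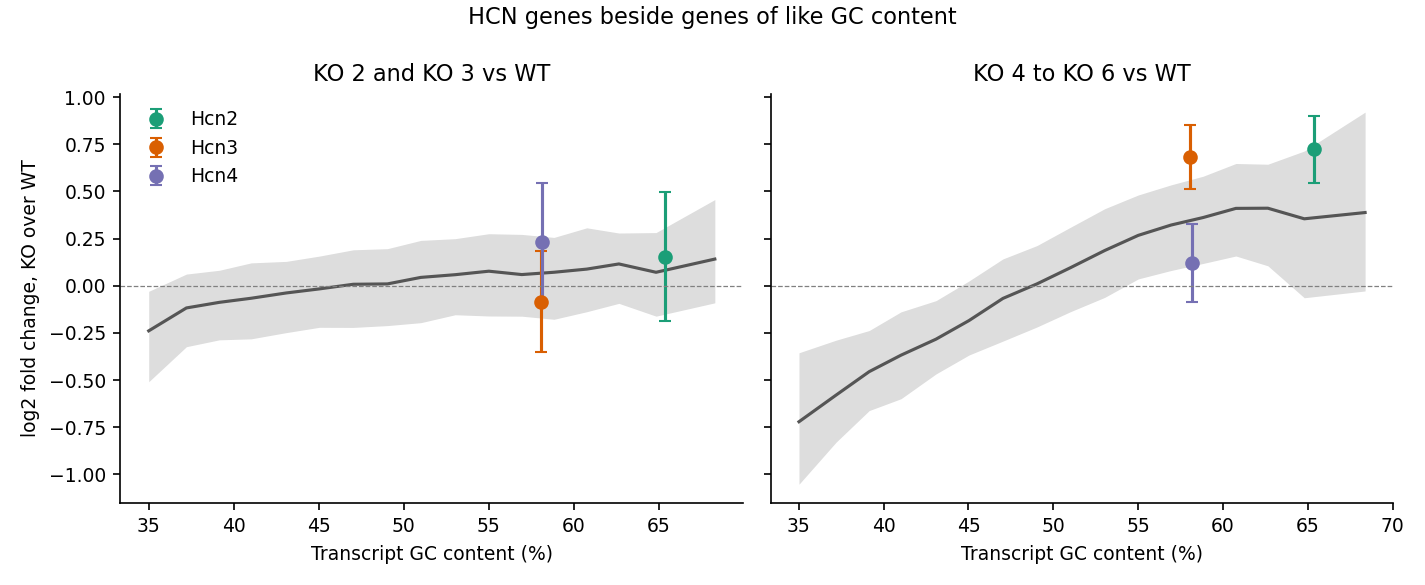
log2 fold change in KO 2 and KO 3 (left) and in KO 4 to KO 6 (right) over WT against the GC content of the transcript: median of all tested genes in bins of GC content (line), their middle 50% (grey band), and the HCN genes with 95% intervals (coloured points; Hcn4 is drawn slightly to the right of Hcn3). In KO 4 to KO 6, Hcn3 (0.68) lies above the band and Hcn4 (0.12) in its lower part, at nearly the same GC content.

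Levels of different genes were compared per kilobase of transcript (4002 bases for Hcn3, 3195 for Hcn2 and 6118 for Hcn4). In WT the order was Hcn2 at 6.16 ± 0.506, Hcn3 at 4.62 ± 0.294 and Hcn4 at 3.89 ± 0.307 CPM per kilobase (SD, n = 3 each), and the ranges of neighbours in this order did not overlap. In the libraries labelled KO the levels were 8.79 ± 1.95, 6.15 ± 1.66 and 4.34 ± 0.580 CPM per kilobase (SD, n = 5 each), and the ranges of neighbours overlapped. Within a library Hcn2 was above Hcn3 in 8 of 8 libraries and Hcn3 above Hcn4 in 7 of 8, the exception being KO 2. The order of Hcn2 and Hcn3 rests on the length used: per kilobase of coding sequence Hcn2 was above Hcn3 in 4 of 8 libraries, with 7.60 ± 0.624 and 7.91 ± 0.503 CPM per kilobase in WT (SD, n = 3 each). Hcn4 was below Hcn2 in all 8 libraries by either length.

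As shares of the summed level of the 3 genes per kilobase of transcript, Hcn4 made up 25.4%, 26.1% and 28.0% in WT. It made up 29.97% in KO 2, 27.7% in KO 3, 19.5% in KO 4, 17.8% in KO 5 and 20.8% in KO 6. The Hcn4 share was thus highest in KO 2 and lowest in KO 4 to KO 6. Hcn2 made up 40.7% to 42.7% in WT and 40.7% to 47.6% in the libraries labelled KO. The Hcn3 share was 29.2% to 33.2% in WT, lowest of all in KO 2, at 24.4%, and highest of all in KO 5, at 36.6%. These shares describe the libraries and were not tested.

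**Figure D4:**
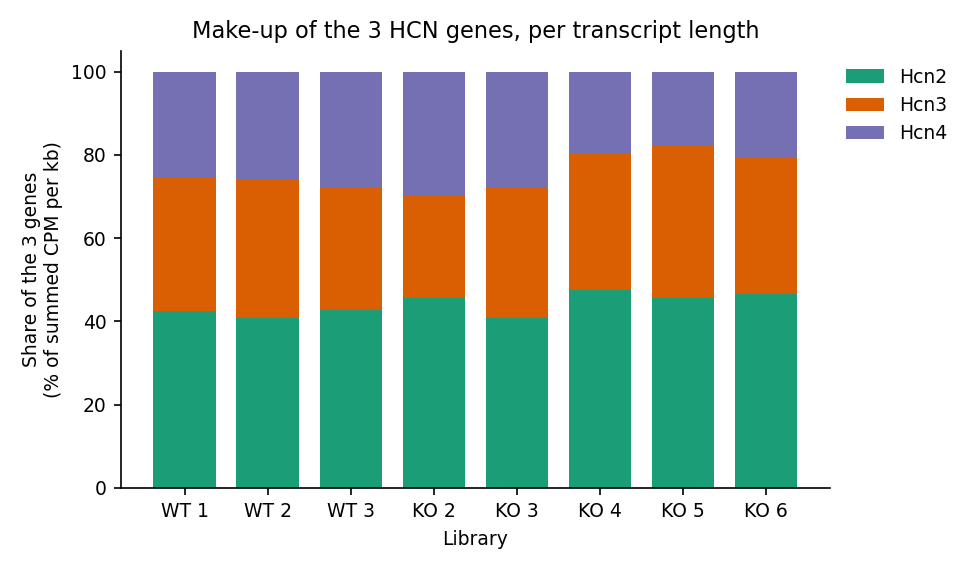
Share of Hcn2, Hcn3 and Hcn4 in their summed level per kilobase of transcript in each library (stacked bars, percent). The Hcn4 part is 17.8% to 20.8% in KO 4 to KO 6 and 25.4% to 29.97% in the other 5 libraries.

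HCN channels work with partner proteins that set their number and place in the membrane or their response to cyclic AMP. Of 10 such genes, all tested, 1 fell and 0 rose over all libraries, a share near the 7.58% of all genes called, and their median log2 fold change was 0.10, beside 0.00073 over all genes. The fall was in Kcne2, a small single-pass subunit that can join potassium channels and HCN channels. Kcne2 was at 55.2, 69.3 and 48.2 CPM in WT and at 45.6, 40.7, 37.5, 44.4 and 36.03 CPM in KO 2 to KO 6, so every library labelled KO lay below every WT library. Its log2 fold change was -0.50 (SE 0.12, edgeR adjusted p = 0.0414), -0.42 in KO 2 and KO 3 (edgeR adjusted p = 0.204) and -0.54 with KO 4 to KO 6 (edgeR adjusted p = 0.00303). The call was kept in 9 of 32 alternative fits. It was lost with the GC offset (-0.40, edgeR adjusted p = 0.0569) and without any of WT 1, WT 2, WT 3, KO 4, KO 5 or KO 6 (edgeR adjusted p of 0.0671 to 0.201).

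Pex5l, which encodes TRIP8b, the main auxiliary subunit of neuronal HCN channels, had 437 to 480 CPM in WT and 401 to 455 CPM in the libraries labelled KO. Its log2 fold change was -0.08 (95% interval -0.29 to 0.13, edgeR adjusted p = 0.617), with -0.13 in KO 2 and KO 3 and -0.04 in KO 4 to KO 6, where it was not called either. Apba2 (log2 fold change 0.44), which encodes the adaptor Mint2, Flna (0.33), which encodes the actin crosslinker filamin A, and Nedd4l (0.31), a ubiquitin ligase of ion channels, did not pass over all libraries (edgeR adjusted p of 0.0795, 0.0740 and 0.0645). All 3 were among the genes that rose in KO 4 to KO 6 against WT, by 0.58, 0.42 and 0.40. With Kcne2, 4 of the 10 partner genes were called there, a share near the 42.8% of all genes. With the GC offset in that comparison, Flna was at 0.20 and was not called (edgeR adjusted p = 0.0733), while Apba2 and Nedd4l were called at 0.29 and 0.52. Nedd4l was also called over all libraries with the offset (0.40, edgeR adjusted p = 0.0430). Kctd3 (0.06), Magi2 (0.14), Irag1 (0.24), Irag2 (-0.32) and Tamalin (-0.01) did not pass in either set of libraries. The last 3 were at 0.0434 to 3.26 CPM, near the floor for Irag2, since 3 counts equal 0.119 to 0.169 CPM.

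Of the Kv subunits listed beside Ih, Kcnb2, which encodes Kv2.2, had a log2 fold change of -0.21 (edgeR adjusted p = 0.472). In KO 4 to KO 6 against WT Kcnb2 fell (-0.44, edgeR adjusted p = 0.00532), a call that ended with the GC offset (0.02, edgeR adjusted p = 0.907), and Kcnv2 fell (-0.38, edgeR adjusted p = 0.000116). Whether the Hcn2 and Hcn3 fold changes differ between the sets of libraries labelled KO was not tested.

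**Figure D5:**
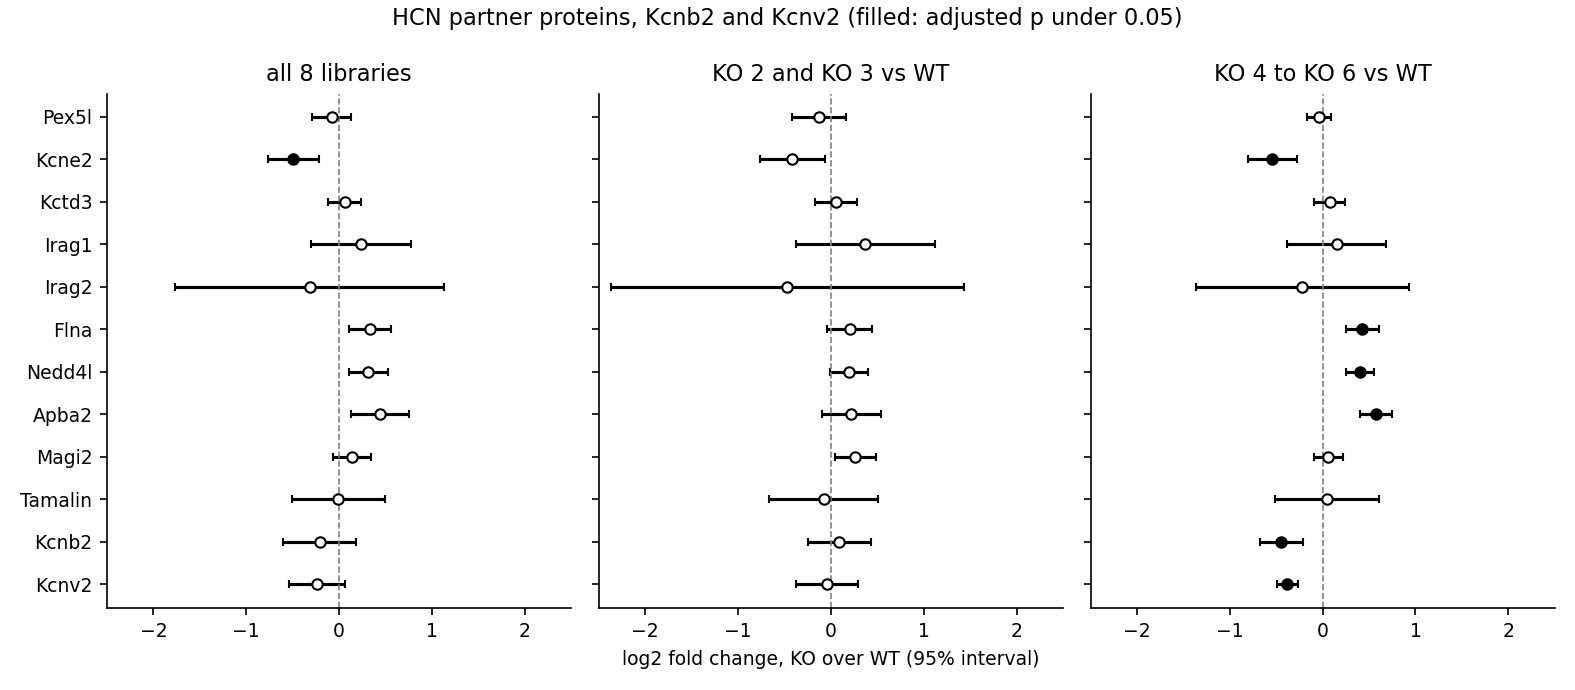
log2 fold change of the 10 HCN partner genes and of Kcnb2 and Kcnv2 in libraries labelled KO over WT (points), with 95% intervals (bars), in all 8 libraries, KO 2 and KO 3, and KO 4 to KO 6; filled points have an adjusted p under 0.05. Kcne2 (-0.50) has the filled point in the fit of all libraries.

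Genes that make or break down cyclic AMP were listed as well. Of 10 adenylyl cyclases, 9 were tested and 0 were called over all libraries by edgeR, with a median log2 fold change of 0.24. The 9 included Adcy1 (0.44, edgeR adjusted p = 0.0650), the calcium-stimulated cyclase of neurons. In KO 4 to KO 6 against WT, where 42.8% of all genes were called and 22.3% as higher, 6 of the 9 rose and 0 fell. In KO 2 and KO 3 against WT, where 0.891% of all genes were called, 0 of the 9 were. Of 15 phosphodiesterases that act on cyclic AMP, 1 rose and 0 fell, a share near the 7.58% of all genes called, with a median of -0.02. Of the 15, 3 rose and 3 fell in KO 4 to KO 6, and 0 were called in KO 2 and KO 3. The call over all libraries was Pde10a, with a mean (± SD) of 25.1 ± 1.52 CPM over WT (n = 3) and 34.6 ± 3.04 CPM over those labelled KO (n = 5). Its log2 fold change was 0.46 (SE 0.10, edgeR adjusted p = 0.0271), 0.54 in KO 2 and KO 3 (edgeR adjusted p = 0.0865) and 0.43 with KO 4 to KO 6 (edgeR adjusted p = 0.000591). The Pde10a call was kept in 17 of 32 alternative fits and lost without WT 1, WT 2, WT 3, KO 4 or KO 5 (edgeR adjusted p of up to 0.117). Among 14 relatives that share the cyclic nucleotide-binding fold, the CNG and the Kcnh (ether-a-go-go) channels, 11 were tested and 0 were called over all libraries, with a median of 0.10. Of the 11, 5 rose and 3 fell in KO 4 to KO 6, beside the 42.8% of all genes called, and in KO 2 and KO 3 0 were called.

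Markers of the cells in which the HCN subunits are known, and of other retinal cells, were compared beside these values. The counts of calls stand beside the 7.58% of all genes called over all libraries. Among 5 amacrine cell, 5 ganglion cell and 3 endothelium markers, 0 were called over all libraries. The 9 markers of rod and ON bipolar cells summed to 1190 to 1265 CPM in WT and 1109 to 1349 CPM in the libraries labelled KO. Of these, Gpr179 rose (log2 fold change 0.48) and Sebox fell (-0.55). The Gpr179 call was lost by library size alone (edgeR adjusted p = 0.0711) and with the GC offset (0.28, edgeR adjusted p = 0.0961). The 6 pan- and OFF-bipolar markers summed to 481 to 535 CPM in WT and 476 to 592 CPM in the libraries labelled KO, with 0 called. The 14 markers found of cone bipolar types summed to 321 to 343 and 336 to 406 CPM, with 0 of 14 called. The 8 cone markers summed to 953 to 1190 CPM in WT and 688 to 916 CPM in the libraries labelled KO. Of the cone markers, Pde6h (-0.74), Gngt2 (-0.60) and Gnat2 (-0.47) fell and Pde6c (0.51) rose. The 8 rod markers summed to 41803 to 45217 CPM in WT and 37046 to 54466 CPM in the libraries labelled KO, with 1 of 8, Sag (0.87), called. The 4 microglia markers summed to 15.9 to 19.0 CPM in WT and 21.3 to 31.5 CPM in the libraries labelled KO, and 2 of them, Tmem119 (0.94) and Csf1r (0.69), rose. With the GC offset neither was called (edgeR adjusted p of 0.0948 for Tmem119 and 0.0552 for Csf1r), and by library size alone Csf1r was not (edgeR adjusted p = 0.0503). The 6 Muller glia markers summed to 3077 to 3264 CPM in WT and 3085 to 4682 CPM in the libraries labelled KO, and 2 of them, Sox9 (0.62) and Kcnj10 (0.54), rose. Of 3 horizontal cell markers, Calb1 alone was called, and it fell (-0.49). The others had positive log2 fold changes, and the median of the list was 0.07. With the GC offset Calb1 was not called (-0.06, edgeR adjusted p = 0.783).

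All 12 marker calls were kept without KO 2 and without KO 3. Of 32 alternative fits, Pde6h was called in 30, Sebox in 23, Sag, Pde6c, Gnat2 and Gngt2 in 17 each, Sox9 in 15, Kcnj10 in 14, Csf1r in 12, Gpr179 and Calb1 in 11 each and Tmem119 in 10. Without WT 1 all of them but Pde6h were lost. Without WT 2, WT 3 or KO 4 all but Pde6h and Sebox were lost. Without KO 5 only Pde6h, Sebox, Sag and Gngt2 were kept. Without KO 6 only Pde6h, Sebox, Sag, Pde6c and Sox9 were kept. In KO 2 and KO 3 against WT, where 0.891% of all genes were called, 2 of the 8 cone markers fell. These were Pde6h and a marker that was not called over all libraries. None of the other markers named here was called there. Every marker named here was called in KO 4 to KO 6 against WT, beside 42.8% of all genes. The part of these cells in the HCN values was not tested.

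Tissue other than retina differed by library. The 8 lens markers summed to 40669 CPM in KO 3, the library with the lowest Hcn2 level of those labelled KO, to 569, 1163 and 18.3 CPM in WT 1 to WT 3 and to 157 CPM in KO 2. They summed to 8.08, 1.69 and 0.820 CPM in KO 4 to KO 6. There 7 of the 8 fell against WT, in the comparison that called Hcn2, Hcn3 and 42.8% of all genes. The 4 markers of the pigment epithelium summed to 31.5 to 42.1 CPM in WT and 34.6 to 64.1 CPM in the libraries labelled KO. The part of either tissue in the HCN values was not tested.

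The genes whose log2 CPM was most like that of each HCN gene over the 8 libraries were sought among 11256 genes whose log2 CPM averaged 3 or more. For Hcn2 they were Cyp2u1 (Pearson's r = 0.987), Med13l (0.986) and Hkdc1 (0.985). For Hcn3 they were Ripor1 (0.995), Ruvbl2 (0.993) and Smyd5 (0.990). For Hcn4 the likeness was lower, with Nsd3 (0.954), Atp8a2 (0.941) and Slc7a14 (0.938). These values come from libraries of which KO 4 to KO 6 form a set, so they describe the shared pattern of that set for Hcn2 and Hcn3.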

How the data were processed

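The authors deposited 1 table of whole-number counts per gene for 8 libraries. The submitters' processing notes name Trim Galore, Salmon 1.10.2, DESeq2 and GRCm38, without roles. Because Salmon gives estimated counts, the deposited values were read as estimated counts already rounded. The annotation release, strand setting and filter are not given in the sources used here. Every gene had at least 16 counts over the libraries.

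Counts were scaled by TMM, filtered with filterByExpr (20167 genes) and compared with edgeR 4.0.16 (glmQLFit, glmQLFTest; R 4.3.3) without covariates. Benjamini-Hochberg adjustment ran over all tested genes, with a call at 0.05. The SE is the fold change divided by the square root of F. GENCODE M21 matched 22121 of 26824 genes by identifier and gave lengths, positions and GC content. The GC offset was a lowess curve (span 0.3) on GC content. It was drawn through each library's log2 CPM (prior count 2) less the gene's mean over the libraries of that fit. DESeq2 1.42.0 and limma 3.58.1 were alternatives. The steps of the main edgeR fit were tested on simulated data, which held no GC trend and no sets of libraries.

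Members, lists and tests were chosen with earlier results of these data known. The genes named were the HCN genes, Kcnv2, the partner and Kv lists, called genes of other lists, and the 3 genes most like each HCN gene. Adcy1 was named after its values were seen. Intervals are at 95%. No pair of libraries of a group agreed within sampling noise (chi-square per degree of freedom at least 5.85 over 13 pairs). The labels speak of individual mice without numbering them, so p-values measure the spread between these libraries. A result that involves a withheld item is not reported here.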

Additional observations from a re-analysis of the deposited data

Results flagged for a closer look

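In 28 gene levels of the 5 libraries labelled KO, the gap of the outermost library to its neighbour was set against the whole range, and 2 passed the limit of 0.71, where chance gives about 1 in 20, or 1.4. Pex5l was lowest in KO 2, at a log2 CPM of 8.65 beside 8.78 in the next library, a gap of 0.711 of the range. Gpr179 was lowest in KO 3, at a log2 CPM of 7.14 beside 7.55, a gap of 0.816 of the range. None of the 3 HCN genes passed the limit (0.521 for Hcn2, 0.109 for Hcn3 and 0.317 for Hcn4).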

How the results depend on the processing

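Hcn2 was higher in the libraries labelled KO under all 32 alternatives and was called in 8, among them DESeq2 (log2 fold change 0.52), limma voom (0.64) and KO 4 to KO 6 with the GC offset (0.30). It ranged from 0.33 to 0.72 without 1 or 2 libraries, and its lowest values over all alternatives were 0.069 in KO 2 and KO 3 with GC offset and 0.086 with block and GC offset. Hcn3 was called in 3, limma voom (0.58), KO 4 to KO 6 (0.68) and the same with the GC offset (0.33), and ranged from 0.19 to 0.68 without 1 or 2 libraries. It turned negative in 6: KO 2 and KO 3 (-0.086; with GC offset -0.13), and WT 2, WT 3, KO 2 and KO 3 with no replicate block (-0.035), with the replicate block (-0.036), with the crossed block (-0.036) and with block and GC offset (-0.092). Hcn4 was called in none and turned negative with the GC offset over all libraries (-0.052) and in KO 4 to KO 6 (-0.23).

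Same-numbered libraries (2 and 3) shared only a number, and their deviations correlated at -0.19 over genes. In these 4 libraries 0 of the 3 HCN genes were called with or without the block, so no HCN call could be lost to it. The number of genes called, 1529, was 3127 by DESeq2, 8248 by limma voom, 180 in KO 2 and KO 3 (166 with GC offset), 5611 in KO 4 to KO 6 with GC offset, and, over 4 libraries, 14 without and 52 with the replicate block (334 with GC offset too), and 527 with the crossed block. Over fits without 1 or 2 libraries it ran from 118 (without KO 4 and KO 5) to 8416 (without KO 2 and KO 3). By library size alone 41.8% of called genes were higher, against 62.5% with TMM, and the HCN directions were the same. Pex5l (0.025), Kctd3 (-0.082) and Magi2 (-0.028) turned in KO 4 to KO 6 with GC offset, Kctd3 also over all libraries (-0.044). Kcnb2 turned in KO 2 and KO 3 (0.091; with GC offset 0.20), with the GC offset (0.10; with the block 0.082; in KO 4 to KO 6 0.021). Without 1 or 2 libraries Irag2 ran from -0.71 to 0.25 and Tamalin from -0.20 to 0.14. The causes were not tested. The crossed block and the GC offset within each set were chosen after seeing the data. The sets of libraries labelled KO also rest on differences seen between the libraries, so p-values within these sets are descriptive.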
